A study of Mus musculus with 14 samples.

Results

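The subject here is the effect of TP53INP2 knockdown on 3T3-L1 cells after 7 days of differentiation into fat cells. Its members were chosen by their labels alone: the 8 arrays of day 7 adipocytes, 4 from control and 4 from knockdown cells, of 14 arrays in all. 3T3-L1 is an established mouse fibroblast line that becomes fat cells under hormone treatment. As preadipocytes, the cells were transduced with a lentivirus carrying either scrambled siRNA sequences (control) or siRNA sequences against TP53INP2 (knockdown, labelled KD TP53INP2). They were then put into differentiation medium 2 days after confluence, and total RNA was taken at day 7 from all 8 samples. The other 6 arrays, 3 control and 3 knockdown, are preadipocytes at day 0. They served to estimate the spread of each gene and to test whether an effect differed between the days. Both groups carry a lentivirus and differ in its sequence; the labels do not give the number of knockdown sequences, and name no rescue. Nothing in them tells whether replicates came from separate cultures; the spread behind each p-value is that of these arrays and could be technical.

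TP53INP2 is a nuclear and cytoplasmic protein that binds ATG8 family proteins and takes part in the formation of autophagosomes, the vesicles that carry cell material to lysosomes. In the nucleus it acts as a coactivator of thyroid hormone receptors. Fat cell differentiation is driven by the transcription factors PPAR gamma and C/EBP alpha; as it proceeds, enzymes of lipid storage and mitochondrial proteins accumulate, while genes of the fibroblast state, such as matrix proteins and their proteases, decline. Wnt and beta-catenin signalling holds this programme back. The comparison asks which of these programmes differ at day 7 when TP53INP2 is depleted.

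Values are log2 expression, 1 probe set per gene, so a difference of 1 is a 2-fold change, and all differences are knockdown minus control. Errors of single groups are SDs (n = 4) and errors of differences are standard errors (SE) of the limma fit. A gene was called higher or lower where its p, adjusted by Benjamini-Hochberg over 18193 genes, was under 0.05. RMA compresses the changes of dim genes, and values of different probe sets were not compared with each other.

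The targeted gene, Trp53inp2, was measured at 11.74, 11.77, 11.78 and 11.70 in control replicates 1 to 4 and at 10.20, 10.06, 10.01 and 10.45 in knockdown replicates 1 to 4. Every knockdown array was below every control array. The difference was -1.57 ± 0.13 (SE), a 2.96-fold decrease (limma adjusted p = 0.000111), and transcript remained well above the bottom of the scale in the knockdown cells. A second probe set for it was dim (4.15 in control and 4.38 in knockdown cells) and differed by 0.24 ± 0.19 (adjusted p = 0.569 over all probe sets). Its paralog Trp53inp1 averaged 11.22 ± 0.22 in control and 11.15 ± 0.34 in knockdown cells and did not pass (adjusted p = 0.865).

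In all, 1197 genes were called (6.58% of those tested): 547 were higher (3.01%) and 650 lower (3.57%) in knockdown adipocytes, and these changes reached 2-fold for 106 and 139 genes. The median over all genes was -0.02. The 4 knockdown arrays lay wholly above the 4 control arrays in 6.02% of all genes and wholly below in 6.96%, and 1029 of the 1197 called genes were among these. Same-numbered arrays deviated together, and with the replicate number as a block 1371 genes were higher (7.54%) and 1309 lower (7.2%). Replicates 1 and 2 of a group were more alike than other arrays: over genes brighter than the median the SD of their difference was 0.0968 in control and 0.132 in knockdown cells, against 0.24 to 0.476 for other pairs. If they stem from 1 culture, errors and p-values are too small; with both averaged into 1 sample, 64 genes passed (0.352%), of which 63 were among the 1197. Single arrays also moved the count, from 369 called genes without knockdown replicate 1 to 2885 without knockdown replicate 3, which lay apart from the other 3 knockdown arrays for many genes. The counts of list members below also moved, and a range beside one is that over the 8 fits that each leave out 1 array; the fit without knockdown replicate 3 gave the most calls, alone or tied, unless another is named. Each list count is to be read beside the shares over all genes, 3.01% higher and 3.57% lower.

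The cells carried the markers of their label. The mean of 6 measured fat cell markers per array lay between 9.68 and 11.26 in control and between 10.72 and 11.98 in knockdown cells, higher in the knockdown array of each number; 0 of the 6 passed singly, 3 with the replicate block. The mean of 7 fibroblast markers lay between 12.72 and 13.04 in control and between 12.30 and 12.87 in knockdown cells, and 2 of these fell, 5 with the block. Mean levels of endothelial, skeletal muscle and epithelial markers stayed between 3.59 and 4.17 on every array, near the bottom of the scale, and 14 macrophage markers between 3.94 and 4.52; of all these lists 1 gene was called, the muscle marker Des, which rose (0.61 ± 0.16). The brightest single members were Csf1r (mean 8.51) of the macrophage, Des (6.74) of the muscle, Egfl7 (6.53) of the endothelial and Cldn3 (5.60) of the epithelial list. The mean of 10 osteoblast and cartilage markers lay between 5.25 and 5.56 in control and between 4.96 and 5.36 in knockdown cells, with Sox9 the brightest (9.28), 8 of 10 below 0 and 0 called. In these bulk samples, a change in the share of cells that became fat cells and a change in RNA per cell cannot be told apart; the part of either in the results below was not tested. The difference between 3' and 5' control probe sets, a measure of RNA quality, was 3.25 ± 0.31 in control and 3.04 ± 0.28 in knockdown cells for beta-actin (exact two-sided permutation p = 0.371, adjusted 0.556), and the measures for Gapdh and the transferrin receptor had exact p of 0.571 and 0.343 (the smallest possible is 0.0286).

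**Figure D1:**
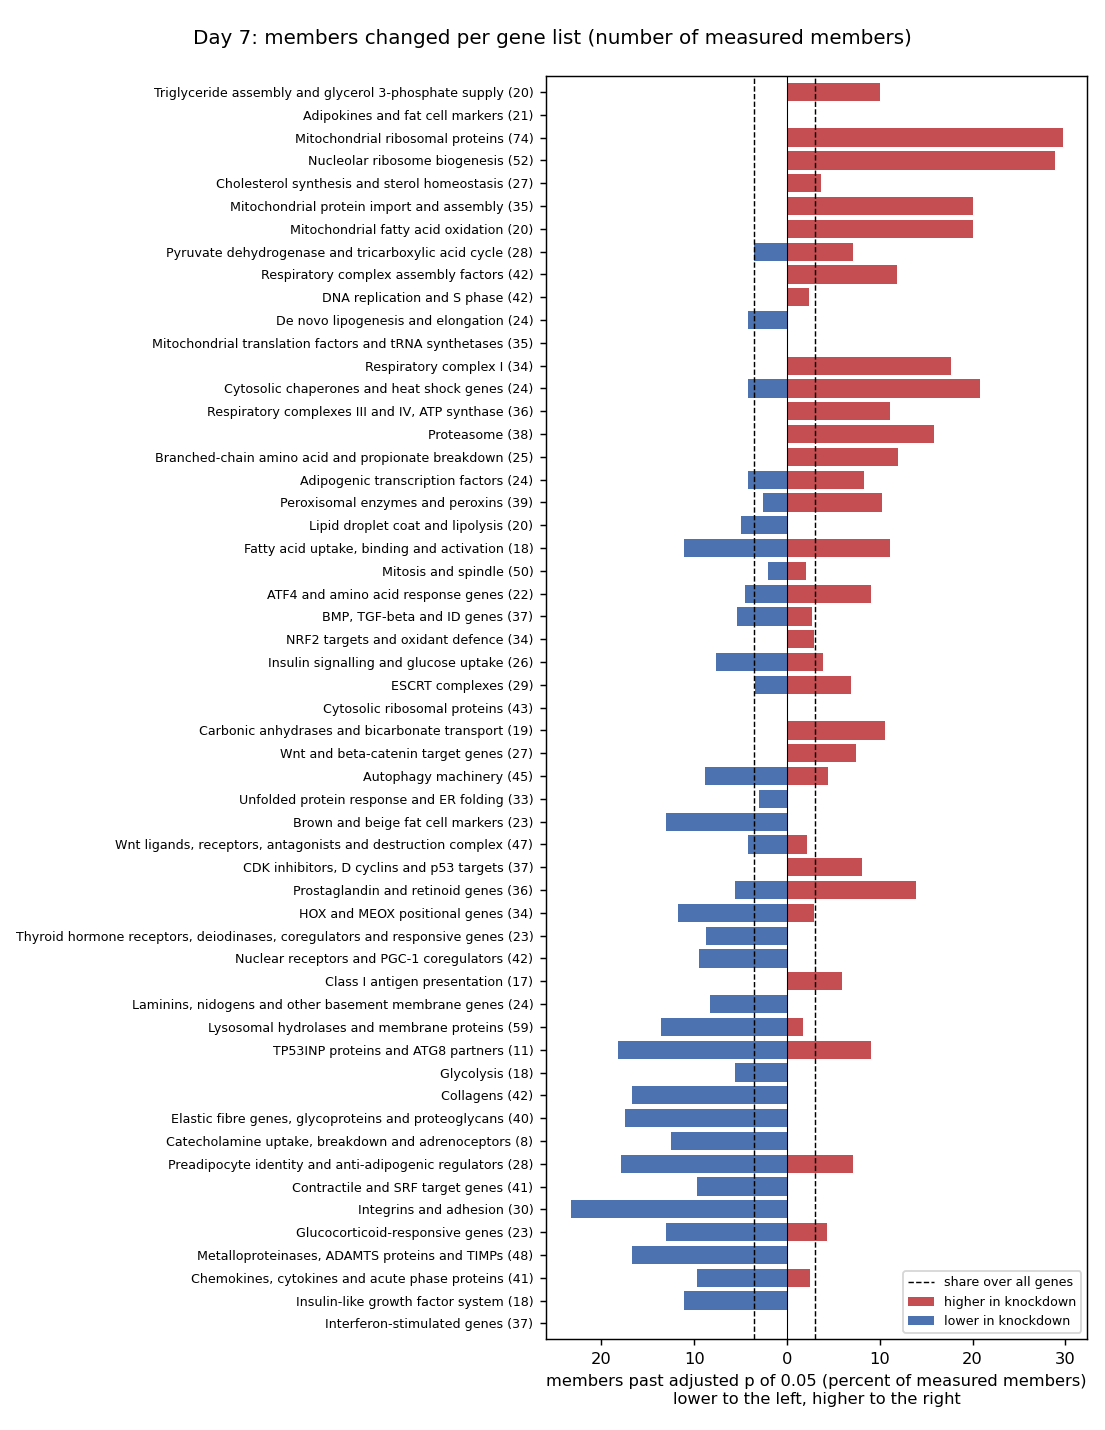
Share of the measured members of each gene list that passed an adjusted p of 0.05 at day 7, lower genes to the left and higher genes to the right; the dashed lines mark the shares over all genes (3.01% higher, 3.57% lower). Lists are ordered by their median log2 difference, and the mitochondrial ribosomal protein list has the longest bar on the right, at 22 of 74 members.

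The 15 largest increases and 15 largest decreases among the genes that passed with replicates 1 and 2 averaged as well as separate, with groups that do not overlap, spread over genes of many functions. All 30 also kept their call with each of the 8 arrays left out. The largest increase among them was in Popdc3, which encodes a membrane protein of the Popeye domain family. It read 6.04, 6.15, 5.16 and 3.63 in the 4 control arrays and 8.13, 7.93, 8.20 and 8.71 in the 4 knockdown arrays, a difference of 3.00 ± 0.43 (limma adjusted p = 0.00269). Id4, a helix-loop-helix protein that blocks DNA binding of its partners, rose by 2.74 ± 0.33 (adjusted p = 0.000897). The adhesion receptor gene Adgrg1 read 5.80, 5.71, 5.49 and 4.44 in control and 8.04, 7.94, 7.44 and 7.54 in knockdown cells, a difference of 2.38 ± 0.25. Rassf3, of the RAS association domain family, rose by 2.33 ± 0.27. The sodium bicarbonate cotransporter gene Slc4a4 rose by 2.06 ± 0.24, the procollagen proteinase enhancer gene Pcolce2 by 2.22 ± 0.30 and the tight junction gene Cgnl1 by 1.78 ± 0.21. Parm1 went from 9.76 ± 0.37 to 11.37 ± 0.19. Also higher were Wfdc6a (2.04), Asphd2 (1.89), Rftn1 (1.79), a lipid raft protein gene, Etl4 (1.66) and Tmem86a (1.33), a lysoplasmalogenase gene.

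The largest decrease was in Klhl4, a Kelch-like protein gene, with 7.04, 6.89, 5.89 and 6.66 in control and 3.36, 2.17, 3.60 and 3.04 in knockdown cells. Its difference of -3.58 ± 0.30 (limma adjusted p = 0.000111) brought it near the bottom of the scale. The interleukin 7 receptor gene Il7r fell by 3.22 on the log2 scale, from 5.87 ± 0.50 to 2.65 ± 0.35. Itm2a, a membrane protein gene, had -2.73 ± 0.37, the voltage-gated potassium channel gene Kcnc2 -2.64 ± 0.34, and the secreted peptidase inhibitor gene Pi15 -2.56 ± 0.29. The cytochrome P450 gene Cyp2f2 had -2.36 ± 0.28, the membrane-anchored metalloproteinase gene Mmp16 -1.99 ± 0.38 and the transmembrane electron carrier gene Cyb561 -1.73 ± 0.20. Of the same set, Pianp (-1.63), Nxf3 (-1.49), Rassf2 (-1.46), Plod1 (-1.43), Ier3ip1 (-1.26) and Zc3h6 (-1.21) also fell. Trp53inp2, Ehhadh and Cd274 complete the 30.

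**Figure D2:**
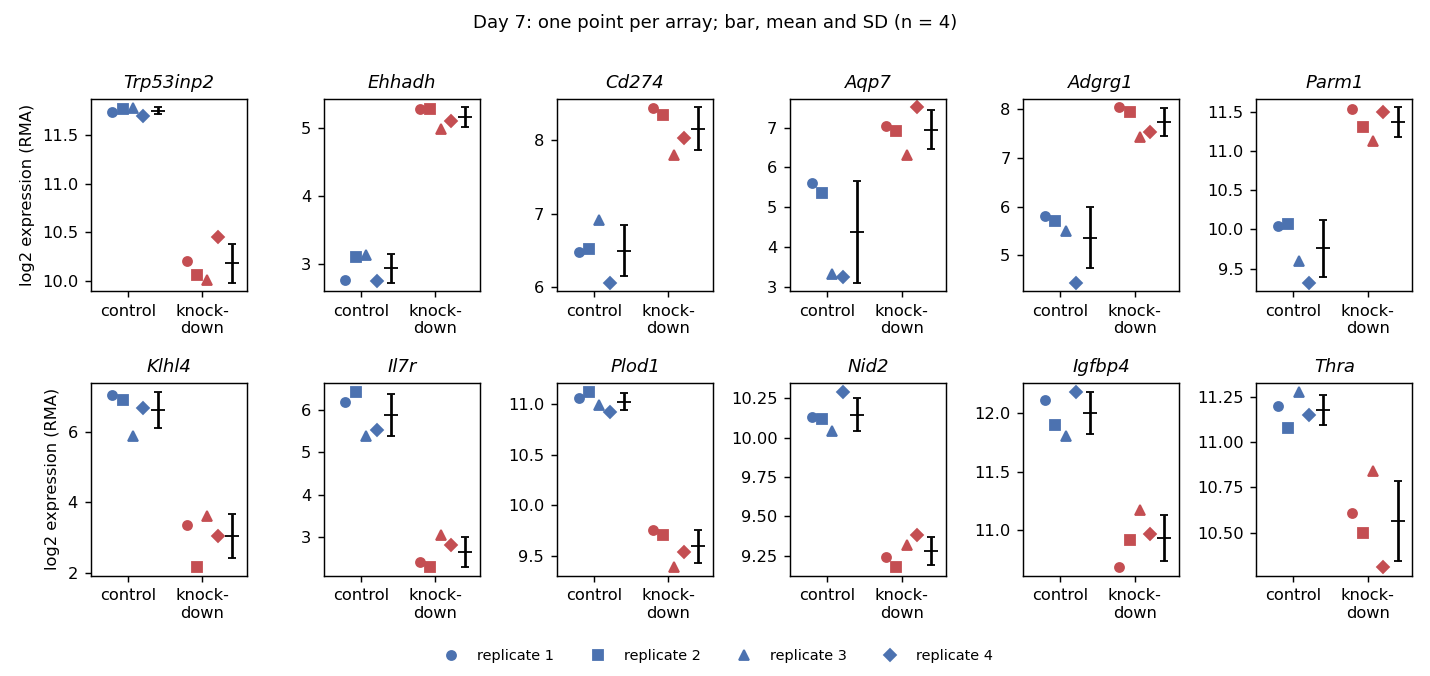
Log2 expression of 12 genes on each day 7 array (symbols mark the replicate number; blue, control; red, knockdown) with the mean and SD of each group of 4. In each panel the groups do not overlap; the y axes differ between genes and do not start at 0.

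Mitochondrial ribosomal protein genes, whose products translate the few messages encoded by mitochondrial DNA, were the list with the most called members. Of 74 measured, 22 rose, 0 fell and 52 did not pass; 72 of the 74 differences were above 0 and their median was 0.39. The medians for the 4 same-numbered pairs were 0.42, 0.34, 0.26 and 0.53. Mrpl1, a protein of the large subunit, averaged 10.27 ± 0.21 in control cells and read 11.41, 11.40, 10.71 and 11.38 in knockdown cells. It rose by 0.95 ± 0.16 (limma adjusted p = 0.00606), and the groups did not overlap. Mrpl20 rose by 0.75 ± 0.17, Mrpl55 by 0.73 ± 0.15 and Mrps7, of the small subunit, by 0.68 ± 0.15. The 48 members called with the replicate block are more than 1.5 times the 22. The count was 4 without knockdown replicate 1 or 2 and 50 without knockdown replicate 3, and 0 with replicates 1 and 2 averaged. Of the 4 genes named, Mrpl1 kept its call with each array left out, and the others lost theirs without control replicate 4 or knockdown replicate 1, 2 or 4, Mrpl20 and Mrps7 also without control replicate 3.

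Genes for the import of proteins into mitochondria showed the same direction in a list added after values had been seen: 7 of 35 rose, 0 fell, 28 did not pass, and the median was 0.29 (18 and 0 with the block; 0 with replicates 1 and 2 averaged; 1 to 19 with 1 array left out, most without knockdown replicate 3). Timm50, a receptor subunit of the inner membrane channel, read 8.88, 9.01, 8.39 and 8.66 in control and 9.93, 9.76, 9.22 and 9.64 in knockdown cells, an increase of 0.90 ± 0.16 (limma adjusted p = 0.00817). The intermembrane chaperone genes Timm10 (0.73 ± 0.19) and Timm9 (0.70 ± 0.17) and the channel gene Timm17a (0.61 ± 0.15) also rose. Subunits of the respiratory chain were called in 1 direction too. Of 34 complex I genes 6 rose and 0 fell (median 0.23; all knockdown arrays above all controls for 11; 13 with the block; 1 to 18 with 1 array left out), among them Ndufs5 (0.54 ± 0.10) and Ndufa8 (0.47 ± 0.11). Of 36 genes of complexes III and IV and the ATP synthase 4 rose and 0 fell (median 0.22; 12 with the block; 0 to 15 with 1 array left out), among them the Rieske iron-sulfur protein gene Uqcrfs1 (0.73 ± 0.20) and Uqcr11 (0.55 ± 0.15). Among 42 assembly factors, a list also added later, 5 rose and 0 fell (16 with the block; 1 to 16 with 1 array left out), including Ndufaf2 (0.68 ± 0.12), Cox18 (0.41 ± 0.09) and Surf1 (0.36 ± 0.09). Of 35 mitochondrial translation factors and tRNA synthetases 0 passed (median 0.24; 8 with the block, 9 without knockdown replicate 3). Of these named genes, Timm50, Ndufs5 and Ndufaf2 kept their call with each of the 8 arrays left out; the others lost it without control replicate 3 and without knockdown replicate 1, 2 or 4, most also without control replicate 4. Citrate synthase, Cs, a usual measure of mitochondrial content, went from 13.12 ± 0.09 to 13.21 ± 0.07 and did not pass (adjusted p = 0.496). A second Cs probe set, at 12.19 in control cells, differed by 0.07 ± 0.12 (limma adjusted p = 0.816 over all probe sets). The dimmest, at 9.19, was higher by 1.05 ± 0.21 (limma adjusted p = 0.022 over all probe sets), so the probe sets of Cs disagreed. The mean level of the mitochondrial ribosome list lay between 10.16 and 10.48 in control and between 10.42 and 10.87 in knockdown arrays, and that of the fat cell markers was higher in the knockdown array of each number too.

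Nucleolar genes that make the cytosolic ribosome form another list added after values had been seen. Of 52 measured, 15 rose, 0 fell and 37 did not pass, with a median of 0.32 and pair medians of 0.34, 0.33, 0.29 and 0.40 (27 with the block). The count was 1 without knockdown replicate 1 and 24 without knockdown replicate 3, and 0 with replicates 1 and 2 averaged. Nhp2, a protein of the particles that pseudouridylate ribosomal RNA, read 10.33, 10.38, 9.67 and 9.74 in control and 11.03, 11.04, 10.33 and 10.79 in knockdown cells. The groups overlapped, and within each number the knockdown array was higher; the difference was 0.77 ± 0.19 (limma adjusted p = 0.0355). Imp4, of the small subunit processome, rose by 0.69 ± 0.16, and Nop16 and Ebna1bp2, both of large subunit assembly, by 0.63 ± 0.17 and 0.63 ± 0.16. By contrast, of 43 proteins of the cytosolic ribosome itself 0 passed in either direction, also with the block, and their median was 0.01. For comparison with such bright genes, 4.02% of all genes with a mean of 9 or more over the 14 arrays were higher and 5.96% lower. Of 38 proteasome genes 6 rose and 0 fell (median 0.20; 8 with the block; 2 to 14 with 1 array left out), led by the assembly chaperone gene Psmg3 (0.77 ± 0.14) and the lid subunit gene Psmd7 (0.65 ± 0.13). Of 24 cytosolic chaperone and heat shock genes 5 rose and 1 fell (9 and 1 with the block; 0 to 10 higher with 1 array left out). The HSP90 cochaperone gene Stip1 (0.47 ± 0.12) and the nucleotide exchange factor gene Hsph1 (0.45 ± 0.10) were higher and Dnajb4 (-0.61 ± 0.12) lower. Psmg3, Psmd7 and Dnajb4 kept their call with each array left out, while the other genes named here lost theirs without control replicate 3 or 4 or without knockdown replicate 1, 2 or 4.

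**Figure D3:**
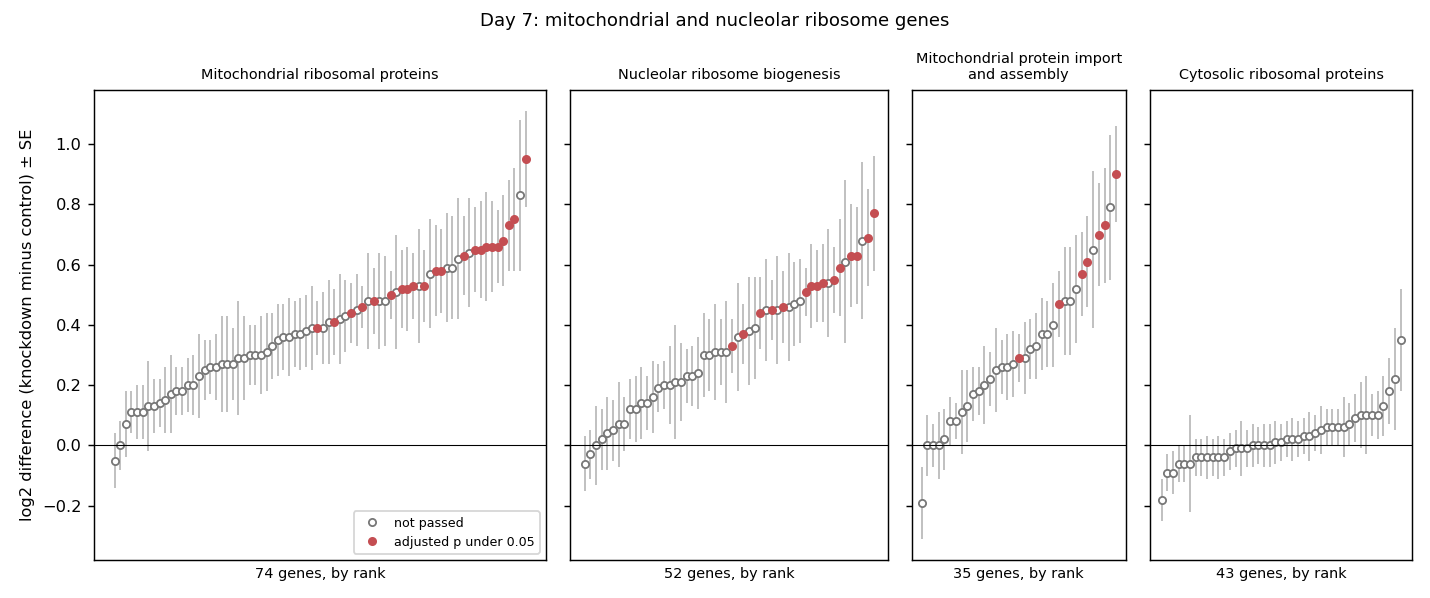
Log2 difference (knockdown minus control) with SE for each member of 4 lists at day 7, ranked within its list; filled points passed an adjusted p of 0.05 (22 of 74, 15 of 52, 7 of 35 and 0 of 43). Nearly all points of the mitochondrial ribosome, biogenesis and import lists lie above 0, and those of the cytosolic ribosome lie around 0.

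The called members of these ribosome and import lists were all higher, and the 250 bases before the genes' starts were read from the RefSeq promoter table (GRCm38.p6), which held 14452 of the tested genes. The motif CCGGAAG, the core bound by ETS family factors, was searched on both strands; it, CACGTG and GCGCATG were added to the search after values had been seen. It was in 10.6% of all tested promoters, in 16.6% of those of higher genes and in 8.97% of those of lower genes. In the lists it stood in 21.5% of mitochondrial ribosome promoters, 26.7% of nucleolar biogenesis promoters and 43.3% of import promoters. Among respiratory chain genes it stood in 24.1% of the promoters of complexes III and IV and the ATP synthase and in 9.68% of those of complex I (3 of 31). It also stood in 38.7% of proteasome and 39.5% of cytosolic ribosome promoters, the latter a list with 0 called members. CACGTG, the E-box read by MYC and USF factors, which is its own reverse complement, was in 7.58% of tested promoters, 10.8% of those of higher and 6.49% of those of lower genes. GCGCATG, the core of the NRF1 site, was in 4.72%, 5.62% and 3.24%. The core AGGTCA of nuclear receptor sites was in 12.2%, 9.72% and 11.5% (2 such cores 1 base apart in 6, 0 and 0 promoters), and ATCAAAG, read by TCF and LEF factors, in 2.68%, 1.51% and 1.72%. A match is only a run of letters and not a site shown to be bound. Promoters of 3 genes that rose and hold the ETS core are shown with every motif match in capitals (5' to 3' on the gene's strand, ending at the base before the start): Mrps18c (chr5:100798509-100798758, plus strand; a difference of 0.46 ± 0.07, limma adjusted p = 0.00396), Nhp2 (chr11:51619523-51619772, plus strand) and Timm10 (chr2:84826771-84827020, plus strand).
Mrps18c: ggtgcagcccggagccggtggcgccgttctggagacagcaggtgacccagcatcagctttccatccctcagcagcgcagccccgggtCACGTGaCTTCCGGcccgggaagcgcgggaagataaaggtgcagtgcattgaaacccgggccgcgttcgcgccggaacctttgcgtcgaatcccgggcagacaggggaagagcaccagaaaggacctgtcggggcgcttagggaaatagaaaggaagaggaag
Nhp2: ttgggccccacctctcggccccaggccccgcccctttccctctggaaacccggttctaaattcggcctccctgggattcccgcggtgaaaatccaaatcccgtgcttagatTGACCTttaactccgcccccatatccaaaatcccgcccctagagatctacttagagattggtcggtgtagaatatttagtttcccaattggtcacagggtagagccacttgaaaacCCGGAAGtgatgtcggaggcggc
Timm10: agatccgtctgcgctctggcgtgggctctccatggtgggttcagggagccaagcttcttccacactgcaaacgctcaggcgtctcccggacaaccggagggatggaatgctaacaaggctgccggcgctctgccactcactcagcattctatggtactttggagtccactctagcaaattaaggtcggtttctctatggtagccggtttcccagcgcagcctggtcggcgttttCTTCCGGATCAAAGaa
In Mrps18c the capitals are CACGTG followed, after 1 base, by the ETS core on the opposite strand. In Nhp2 they are AGGTCA on the opposite strand and, close to the start, the ETS core. In Timm10 the ETS core on the opposite strand is followed directly by ATCAAAG, both close to the start.

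Some enzymes that burn fatty acids rose in knockdown adipocytes. Of 20 genes of mitochondrial fatty acid oxidation 4 rose and 0 fell (median 0.29; 8 with the block; 1 to 9 with 1 array left out). Acads, the short-chain acyl-CoA dehydrogenase, rose by 0.83 ± 0.17 (limma adjusted p = 0.0152), Hadha, the alpha subunit of the trifunctional protein, by 0.58 ± 0.15, and the electron transfer flavoprotein gene Etfb by 0.54 ± 0.14. Of 39 peroxisomal genes 4 rose and 1 fell (13 and 2 with the block; 1 to 9 higher with 1 array left out). Ehhadh, the bifunctional enzyme of peroxisomal fatty acid oxidation, was the gene with the smallest adjusted p of all. It read 2.76, 3.10, 3.12 and 2.74 in control and 5.27, 5.27, 4.98 and 5.10 in knockdown cells, 2 tight groups far apart. The difference was 2.23 ± 0.14 (4.68-fold, limma adjusted p = 2.07e-05), with control values close to the floor of the scale. The thiolase gene Acaa1b rose by 1.44 ± 0.33, the very long-chain acyl-CoA transporter gene Abcd2 by 1.04 ± 0.22 and the import receptor gene Pex5 by 0.77 ± 0.17, while Pex26, which anchors the import machinery, fell by 0.85 on the log2 scale. The promoter of Ehhadh (chr16:21787835-21788084, minus strand) is shown because this gene stood apart. Its capitals mark TCACNCC on the opposite strand, a core of the sterol element, which 2018 of the 14452 tested promoters hold; the window holds no AGGTCA.
Ehhadh: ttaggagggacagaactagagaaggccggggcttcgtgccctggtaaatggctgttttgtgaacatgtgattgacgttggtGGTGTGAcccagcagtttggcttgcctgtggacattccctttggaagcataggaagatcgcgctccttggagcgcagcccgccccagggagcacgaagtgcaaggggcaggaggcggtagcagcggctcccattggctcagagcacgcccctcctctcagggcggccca
Ppara, which encodes the receptor known to drive Ehhadh in liver, went from 4.54 ± 0.15 to 4.78 ± 0.38 and did not pass (adjusted p = 0.476).

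Of 28 genes of pyruvate dehydrogenase and the tricarboxylic acid cycle 2 rose and 1 fell (median 0.27; 11 and 3 with the block; 0 to 10 higher with 1 array left out). Pyruvate carboxylase, Pcx, which supplies oxaloacetate for lipid and glyceride synthesis, rose by 1.11 ± 0.29, and Dld, the shared dihydrolipoyl dehydrogenase subunit, by 0.71 ± 0.18. Pdk1, a kinase that shuts off pyruvate dehydrogenase, fell by 0.97 on the log2 scale. Of 25 genes of branched-chain amino acid and propionate breakdown 3 rose and 0 fell (5 with the block; 0 to 6 with 1 array left out), including the transaminase gene Bcat2 (0.87 ± 0.24) and Bckdhb (0.92 ± 0.22). Of 18 glycolytic genes 1 fell, the enolase gene Eno2 (-1.54 ± 0.38), and the list's median was -0.16 (2 lower with the block; 0 to 2 lower and 0 to 1 higher with 1 array left out). Each of Bcat2, Etfb and Uqcr11 lost its call when any single array other than knockdown replicate 3 was left out, while Acads, Ehhadh and Pex26 kept theirs in all 8 such fits. Abcd2 lost its call only without control replicate 3; the calls of Hadha, Acaa1b, Pex5, Pcx, Dld, Pdk1, Bckdhb and Eno2 each needed control replicate 3 and knockdown replicates 1, 2 and 4, and those of all but Pex5 at least 1 other control array.

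Genes of triglyceride storage had a higher median than most lists, 0.49 over 20 genes, but only 2 of them rose singly and 0 fell (11 with the block; 1 to 9 with 1 array left out). Aqp7, the glycerol channel of fat cells, read 5.62, 5.36, 3.32 and 3.24 in control and 7.04, 6.93, 6.31 and 7.51 in knockdown cells. Control replicates 3 and 4 were far lower than 1 and 2, and still no array of one group reached the other; the difference was 2.56 ± 0.49 (limma adjusted p = 0.0121). Dgat2, the last enzyme of triglyceride synthesis, rose by 2.01 ± 0.41; its call was lost without knockdown replicate 1, 2 or 4. Of 24 genes of de novo lipogenesis and elongation 0 rose and 1 fell, the elongase gene Elovl5 (-0.43 ± 0.08), with a median of 0.24 (7 and 2 with the block; 0 to 9 higher and 1 to 2 lower with 1 array left out). Fatty acid synthase, Fasn, went from 10.28 ± 0.50 to 10.95 ± 0.46 and did not pass but did so with the block (adjusted p = 0.132, and 0.00702 with it). Of 18 genes of fatty acid uptake and activation 2 rose and 2 fell (3 and 2 with the block; 1 to 3 higher and 0 to 2 lower with 1 array left out). The acyl-CoA synthetase gene Acsl5 was higher (0.47 ± 0.09), and the transporter gene Slc27a1 (-0.83 ± 0.19) and the lipoprotein receptor gene Vldlr (-0.56 ± 0.14) were lower. Of 27 cholesterol synthesis genes 1 rose, the lanosterol demethylase gene Cyp51, with a median of 0.30 (10 with the block; 0 to 4 higher with 1 array left out). That is 3.7% called, against 6.58% over all genes. Cyp51 read 10.86, 10.91, 9.25 and 10.14 in control and 12.08, 12.17, 10.96 and 12.06 in knockdown cells; both replicate 3 arrays were the lowest of their group, and the difference was 1.53 ± 0.35. Aqp7, Elovl5 and Acsl5 kept their call with each array left out; Cyp51, Slc27a1 and Vldlr lost theirs without control replicate 4, knockdown replicate 1 or 2 and some others.

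The fat cell identity genes themselves did not pass. Of 21 adipokine and fat cell marker genes 0 were called (median 0.46; 5 higher with the block; up to 6 without knockdown replicate 3). Adiponectin, Adipoq, read 11.06, 11.08, 9.92 and 9.23 in control and 11.81, 11.76, 11.02 and 12.30 in knockdown cells, higher within each number but with overlapping groups (1.40 ± 0.98, limma adjusted p = 0.435). Fabp4, the fatty acid binding protein of fat cells, had 0.15 ± 0.13 and lipoprotein lipase, Lpl, 0.02 ± 0.07, both near the top of the scale. Other Fabp4 probe sets, at 13.30, 9.94 and 7.25 in control cells, differed by 0.15 ± 0.18, 0.88 ± 0.42 and 1.17 ± 0.42. A dimmer Lpl probe set, at 11.57, differed by 0.58 ± 0.17, and none of these passed. Leptin, Lep, had -0.17 ± 0.15 near the bottom. The insulin-regulated glucose transporter gene Slc2a4 had 1.54 ± 0.61 (adjusted p = 0.148, and 0.0411 with the block). The master regulator Pparg went from 11.98 ± 0.36 to 12.49 ± 0.24 (adjusted p = 0.115, and 0.0316 with the block) and Cebpa from 10.72 ± 1.06 to 11.94 ± 0.60 (adjusted p = 0.103, and 0.0204 with the block). Srebf1, the lipogenic sterol regulator, had 0.08 ± 0.17. Of 24 adipogenic transcription factors 2 rose and 1 fell (7 and 3 with the block; 0 to 7 higher and 0 to 3 lower with 1 array left out). Cebpd, an early factor of the programme induced by glucocorticoid, fell from 10.92 ± 0.23 to 10.02 ± 0.45 (adjusted p = 0.0173), and the GATA factors that restrain adipogenesis, Gata3 (0.92 ± 0.18) and Gata2 (0.56 ± 0.15), rose. Cebpd lost its call without knockdown replicate 1 or 2, Gata3 without knockdown replicate 1, and Gata2 without any 1 of 6 arrays, all but control replicate 2 and knockdown replicate 3.

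**Figure D4:**
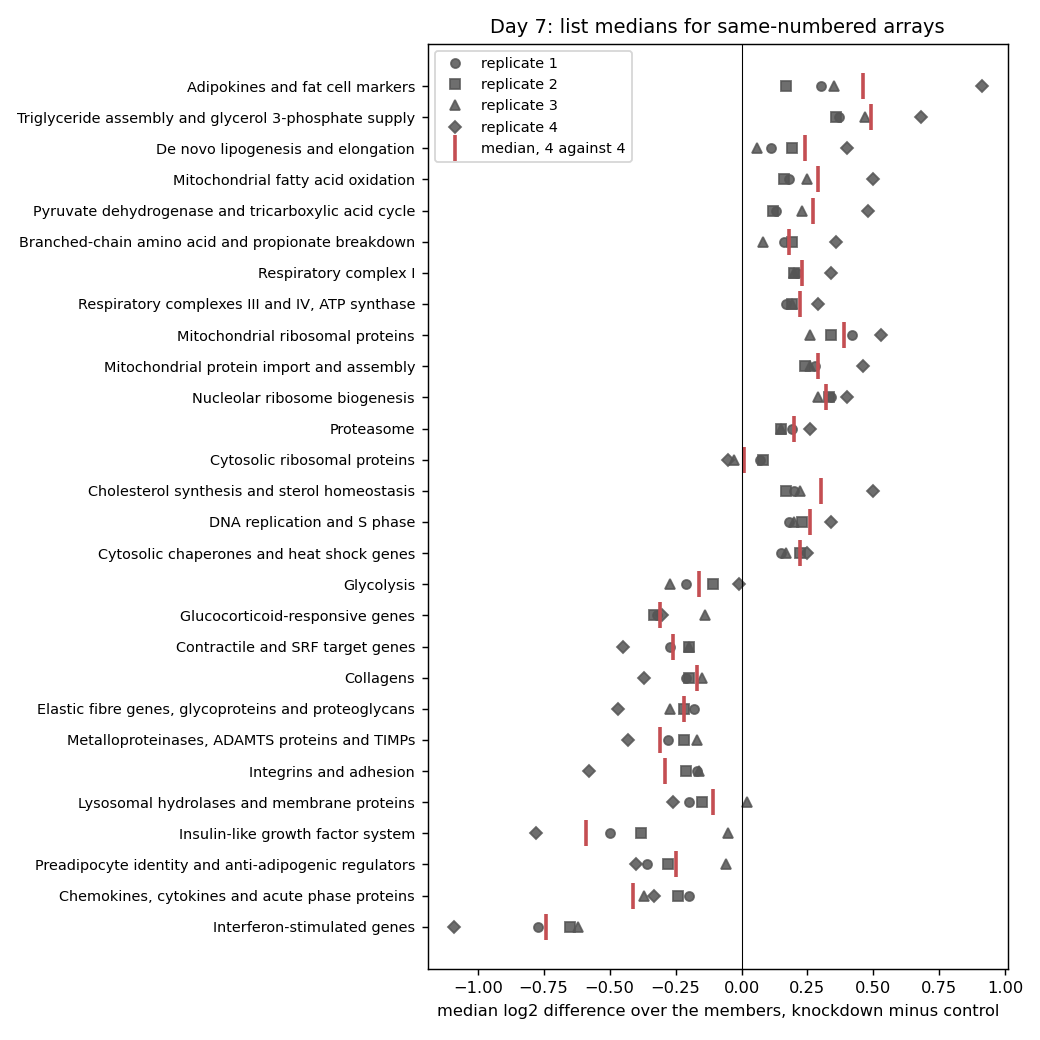
Median log2 difference over the members of 28 lists for each of the 4 same-numbered pairs of arrays (grey symbols) and for the fit of 4 against 4 (red bar). The mitochondrial and nucleolar lists lie to the right of 0 and the collagen, matrix, protease and interferon lists to the left of 0 in all 4 pairs, while the lysosome list lies at 0.02 in replicate 3.

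Among 23 thyroid hormone receptors, deiodinases, coregulators and responsive genes 2 fell and 0 rose, with a median of -0.07 (3 and 1 with the block; 2 to 4 lower and 0 to 1 higher with 1 array left out). The share called was 8.7%, against 6.58% over all genes. Thra, the thyroid hormone receptor alpha and a partner of TP53INP2, read 11.20, 11.08, 11.28 and 11.15 in control and 10.61, 10.50, 10.84 and 10.31 in knockdown cells, with no overlap. It fell by 0.61 on the log2 scale (SE 0.11, limma adjusted p = 0.0081). The decrease was in the brightest probe set only. The other Thra probe sets, at 8.31 and 7.36 in control cells, differed by 0.13 ± 0.14 and 0.02 ± 0.18 (limma adjusted p = 0.696 and 0.976 over all probe sets). Dio2, the deiodinase that activates thyroid hormone, fell by 1.47 (SE 0.25) from 5.32 ± 0.43. Of 42 nuclear receptors and PGC-1 coregulators 0 rose and 4 fell (5 and 5 with the block; 0 to 6 higher and 1 to 5 lower with 1 array left out), among them the vitamin D receptor gene Vdr (-1.14 ± 0.29), the retinoic acid receptor gene Rarg (-0.77 ± 0.15) and the clock repressor gene Nr1d2 (-0.50 ± 0.12). Ppargc1a, the coactivator known for driving mitochondrial biogenesis, had 0.65 ± 0.22 (adjusted p = 0.0939, and 0.0339 with the block). Ucp1, the uncoupling protein of brown fat, was near the bottom of the scale in both groups, 4.18 ± 0.25 and 4.11 ± 0.25, and of 23 brown and beige fat markers 0 rose and 3 fell (3 and 4 with the block; 0 to 4 higher and 1 to 4 lower with 1 array left out). Of 23 glucocorticoid-responsive genes 1 rose and 3 fell (1 and 8 with the block; 0 to 1 higher and 1 to 5 lower with 1 array left out; median -0.31). The metallothionein genes Mt2 (-0.64 ± 0.12) and Mt1 (-0.33 ± 0.07) were lower, and Hsd11b1, the enzyme that regenerates active glucocorticoid, was higher (0.77 ± 0.19). Of 26 genes of insulin signalling 1 rose, the adaptor gene Irs2 (0.76 ± 0.17), and 2 fell (3 and 2 with the block; 0 to 3 higher and 0 to 4 lower with 1 array left out). Pde3b, which degrades cyclic AMP when insulin acts on fat cells, fell by 1.10 (SE 0.22), with the knockdown arrays between 8.48 and 8.65 and the controls between 8.96 and 10.06. Thra, Dio2, Mt2 and Pde3b kept their call with each array left out; the others lost theirs without knockdown replicate 1, and all of those but Rarg without knockdown replicate 2 as well.

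Wnt lists held about the share of called genes found over all genes (6.58%). Of 27 Wnt and beta-catenin target genes 2 rose and 0 fell (7.41% called; 2 and 3 with the block; 1 to 2 higher and 0 to 1 lower with 1 array left out; median near 0): Apcdd1, a membrane inhibitor of Wnt signalling and itself a target, rose by 1.13 ± 0.17 (limma adjusted p = 0.00326), and the transcription factor gene Lef1 by 0.69 ± 0.19. The target Axin2 had 0.02 ± 0.15. Of 47 ligands, receptors, antagonists and members of the destruction complex 1 rose and 2 fell (6.38% called; 3 and 4 with the block; 1 to 2 higher and 2 to 3 lower with 1 array left out). The receptor gene Fzd3 was higher (1.10 ± 0.20), while Fzd2 (-0.79 ± 0.15) and the ligand gene Wnt5a (-0.61 ± 0.11) were lower. Beta-catenin, Ctnnb1, differed by -0.05 ± 0.07 and its kinase Gsk3b by -0.08 ± 0.07, neither of which passed; the sign for Ctnnb1 turned with another probe set, and that for Wnt5a as well, with values in the closing section. Of 37 BMP, TGF-beta and ID genes 1 rose (Id4) and 2 fell, Smad3 (-0.73 ± 0.11) and the receptor gene Tgfbr2 (-0.44 ± 0.08), both of the TGF-beta branch (4 and 3 with the block; 1 to 3 higher and 2 to 6 lower with 1 array left out). That is 8.11% called, near the 6.58% over all genes. Of 28 preadipocyte and anti-adipogenic genes 2 rose, the GATA factors above, and 5 fell (3 and 8 with the block; median -0.25; 0 to 3 higher and 1 to 11 lower with 1 array left out). Besides Itm2a and Prrx1 these were the adhesion molecule gene Ncam1 (-1.45 ± 0.29), Aebp1 (-1.33 ± 0.34) and the growth factor receptor gene Pdgfra (-0.49 ± 0.13). Dlk1, the classical preadipocyte marker, did not pass but did so with the block (-0.67 ± 0.23, adjusted p = 0.102, and 0.0198 with it). A dimmer Dlk1 probe set had -1.36 ± 0.34 (limma adjusted p = 0.0493 over all probe sets, without the block). The homeobox genes Meox2 (-3.27 ± 0.44) and Hoxc4 (-1.23 ± 0.26) fell; Meox2 read 2.53, 2.54 and 2.55 in knockdown replicates 1, 2 and 4 and 4.71 in replicate 3, under all 4 control arrays, which averaged 6.35 ± 0.47 (SD). Lef1, Aebp1, Pdgfra and Ncam1 lost their call without knockdown replicate 1, 2 or 4 (the first 3 also without control replicate 3 or 4), Hoxc4 only without knockdown replicate 4, and the other called genes with values here kept theirs with each array left out.

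Called members of the matrix lists were all lower in knockdown adipocytes: the lists of collagens, other matrix proteins, basement membrane and proteases had 0 higher members. With replicates 1 and 2 averaged, the lower members were 1 collagen, 0 other matrix, 1 basement membrane and 1 protease gene. Pcolce2, a procollagen proteinase enhancer gene that these lists do not hold, went the other way (2.22 ± 0.30). Of 42 collagen genes and enzymes that process collagen 7 fell and 0 rose (median -0.17; 15 lower with the block; 5 to 15 with 1 array left out). Plod1, the lysyl hydroxylase that readies collagen for crosslinking, read 11.06, 11.12, 10.99 and 10.92 in control and 9.75, 9.70, 9.39 and 9.54 in knockdown cells. The groups were tight and far apart, with a difference of -1.43 ± 0.13 (limma adjusted p = 0.000163). The fibrillar collagen gene Col11a1 fell from 9.47 ± 0.53 to 7.16 ± 0.49, and the transmembrane collagen gene Col23a1 from 5.91 ± 0.39 to 3.95 ± 0.93. Col18a1 (-0.63 ± 0.12), the source of endostatin, Col3a1 (-0.35 ± 0.07) and the prolyl hydroxylase gene P4ha1 (-0.80 ± 0.21) were lower. Col1a1 did not pass but did so with the block (-0.40 ± 0.12, adjusted p = 0.0658, and 0.0386 with it). Of 40 genes of elastic fibres, glycoproteins and proteoglycans 7 fell and 0 rose (median -0.22; 13 with the block; 3 to 12 with 1 array left out). The small leucine-rich proteoglycan genes Ogn (-2.04 ± 0.39), Dcn (-1.43 ± 0.32) and Fmod (-1.22 ± 0.23) and the matrilin gene Matn2 (-1.30 ± 0.21) were among them. Of 24 basement membrane genes 2 fell and 0 rose (4 with the block; 2 to 5 with 1 array left out). The linker protein gene Nid2 read 10.13, 10.12, 10.04 and 10.29 in control and 9.24, 9.18, 9.32 and 9.38 in knockdown cells, a difference of -0.87 ± 0.08 (adjusted p = 0.000163). Of the called genes, Col23a1 lost its call without control replicate 4 or knockdown replicate 4, Col3a1 without knockdown replicate 1, and P4ha1 and Dcn without control replicate 3 or 4 or knockdown replicate 1, 2 or 4.

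Proteases, their inhibitors and the receptors that hold matrix followed the same direction. Of 48 metalloproteinases, ADAMTS proteins and TIMPs 8 fell and 0 rose (median -0.31; 18 with the block; 4 to 16 with 1 array left out). Both inhibitors and enzymes were among them. The inhibitor gene Timp3 read 8.22, 8.25, 9.63 and 8.92 in control and 5.35, 5.66, 8.14 and 5.15 in knockdown cells. Knockdown replicate 3 stood just under the lowest control; the difference was -2.68 ± 0.55 (limma adjusted p = 0.0172) and its call was lost without knockdown replicate 1, 2 or 4. Timp4 fell from 11.70 ± 0.60 to 9.98 ± 0.55, the secreted ADAMTS-like gene Adamtsl1 from 5.65 ± 0.45 to 3.23 ± 0.72, and Adamts15 from 10.57 ± 0.42 to 9.27 ± 0.18. Of 30 integrins and adhesion genes 7 fell and 0 rose (median -0.29; 9 lower and 1 higher with the block; 1 to 12 lower with 1 array left out), including Itgb8 (-1.97 ± 0.38), which activates latent TGF-beta, and the leukocyte integrin gene Itgb2 (-0.82 ± 0.18). Of 41 contractile and SRF target genes 4 fell and 0 rose (median -0.26; 14 with the block; 2 to 14 with 1 array left out), among them the focal adhesion cofactor gene Tgfb1i1 (-0.70 ± 0.12) and the tropomyosin gene Tpm2 (-0.44 ± 0.11). Smooth muscle actin, Acta2, had -0.25 ± 0.41. In the insulin-like growth factor system, where 0 rose and 2 of 18 fell (5 with the block; 2 to 4 with 1 array left out; median -0.59), the binding protein gene Igfbp4 read 12.11, 11.90, 11.80 and 12.18 in control and 10.69, 10.92, 11.17 and 10.97 in knockdown cells (-1.06 ± 0.11, adjusted p = 0.000477). Pappa2, a protease that cleaves such binding proteins, fell by 1.33 (SE 0.24). Adamts15 lost its call without control replicate 4 or knockdown replicate 1, and Itgb2 and Tpm2 without control replicate 3 or 4 or knockdown replicate 1, 2 or 4. With replicates 1 and 2 averaged, 0 integrin and adhesion genes, 0 contractile genes and 1 insulin-like growth factor gene were lower. The fibroblast markers were lower with these lists, by a median of -0.40 over 7 genes; their part in the result was not tested.

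**Figure D5:**
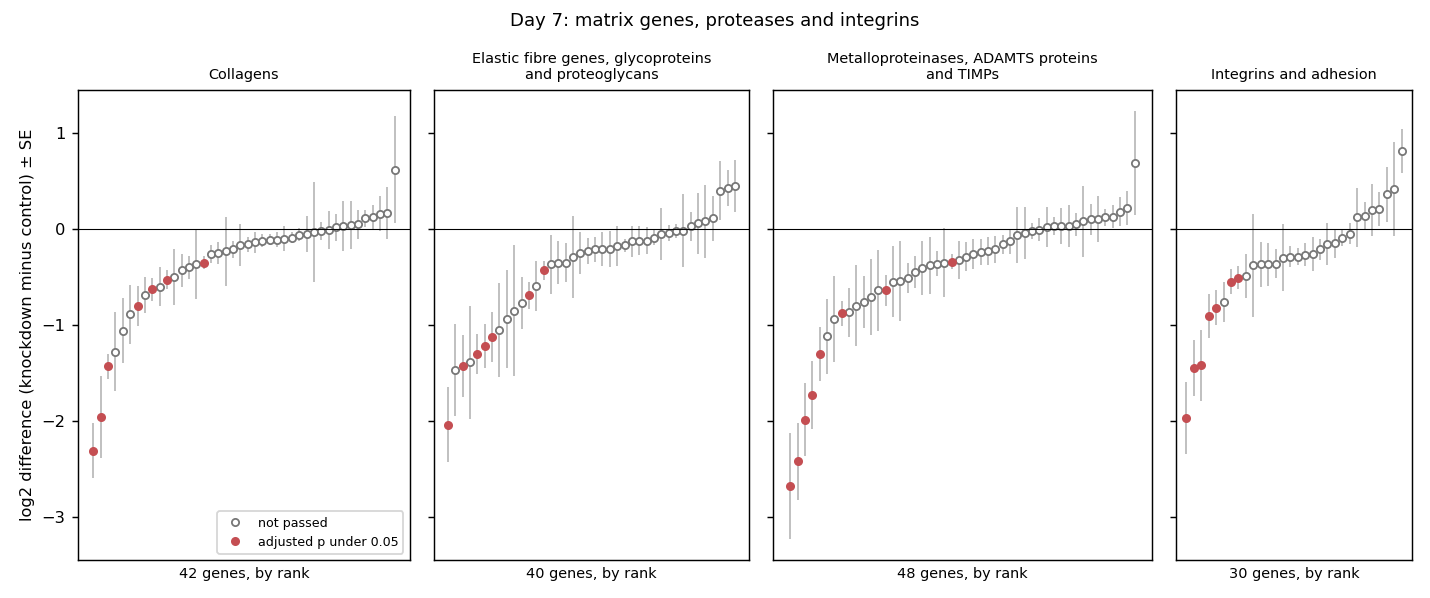
Log2 difference (knockdown minus control) with SE for each member of the collagen, matrix, protease and integrin lists at day 7, ranked within its list; filled points passed an adjusted p of 0.05. All filled points (7, 7, 8 and 7) lie below 0.

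Called lysosomal genes were mostly lower, and called autophagy genes went in both directions. Of 59 lysosomal genes 8 fell and 1 rose (median -0.11; 14 and 1 with the block). The count of lower genes was 2 without knockdown replicate 1, 2 or 4 and 19 without knockdown replicate 3, in which the median difference to its control was 0.02. Gaa, the acid glucosidase that breaks down glycogen, read 11.75, 11.67, 11.84 and 11.77 in control and 10.86, 10.81, 11.34 and 10.91 in knockdown cells. It fell by 0.78 on the log2 scale (SE 0.11, limma adjusted p = 0.00181) with no overlap and kept its call with each array left out. Lipa, the acid lipase that frees fatty acids from lipids taken up by lysosomes, had -0.78 ± 0.16, cathepsin F, Ctsf, -0.73 ± 0.18 and progranulin, Grn, -0.60 ± 0.12. Of 45 autophagy genes 2 rose and 4 fell (5 and 4 with the block; 0 to 5 higher and 1 to 4 lower with 1 array left out; median -0.01). The ATG8 family gene Map1lc3b, which encodes LC3B, a partner of TP53INP2, read 12.13, 12.09, 12.17 and 12.15 in control and 11.59, 11.42, 11.98 and 11.71 in knockdown cells, a difference of -0.46 ± 0.10 (adjusted p = 0.0208). A Map1lc3b probe set nearly as bright, at 11.80 in control cells, differed by only -0.10 ± 0.08 (limma adjusted p = 0.544 over all probe sets). Dimmer ones, at 8.79 and 3.59, had -0.59 ± 0.14 and -0.12 ± 0.36 (limma adjusted p = 0.0382 and 0.906). The lipid transfer protein gene Atg2b (-0.64 ± 0.14), the conjugating enzyme gene Atg10 (-0.68 ± 0.15) and Atg4b, which trims ATG8 proteins (-0.50 ± 0.10), also fell, and the phosphoinositide reader gene Wipi2 rose (0.51 ± 0.11). Other Atg2b probe sets, at 7.64 and 2.84 in control cells, differed by 0.01 ± 0.13 and -0.13 ± 0.11. The ATG8 family gene Gabarap (-0.13 ± 0.08) and the cargo receptor gene Sqstm1 (0.09 ± 0.12) did not pass. Of 11 TP53INP proteins and ATG8 partners the only other called gene was Ubqln1, a shuttle factor to the proteasome (0.48 ± 0.11; the list had 0 to 1 higher and 1 to 3 lower members with 1 array left out). Of 29 ESCRT genes, whose products sort membrane proteins for the lysosome, 2 rose, among them Snf8 (0.33 ± 0.09), and 1 fell, Hgs (-0.35 ± 0.07; 2 and 1 with the block; 0 to 4 higher and 1 to 3 lower with 1 array left out). Called ESCRT genes were 10.3% of the list, against 6.58% over all genes. Gaa and Hgs kept their call with each array left out, Atg4b lost it without knockdown replicate 4 alone, Wipi2 without control replicate 1 or knockdown replicate 4, and the others without at least 3 of the arrays, among them knockdown replicates 1 and 2. With replicates 1 and 2 averaged, 0 of these lysosomal, autophagy and ESCRT genes passed.

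Interferon-stimulated genes had the lowest median of all lists, -0.74 over 37 genes, and 36 of the 37 were below 0, yet 0 passed. With the replicate block 27 were lower and 0 higher. Both replicate 3 arrays were high: the list's mean was 7.90, 7.93, 9.52 and 8.65 in control and 7.20, 7.25, 8.81 and 7.59 in knockdown cells. The pair medians were -0.77, -0.65, -0.62 and -1.09, and 21 members were lower without knockdown replicate 3. As examples picked after their values were seen, the GTPase gene Ifi47 read 7.67, 7.77, 9.71 and 8.64 in control and 5.88, 5.93, 8.40 and 5.65 in knockdown cells (-1.98 ± 0.58, limma adjusted p = 0.0594, and 0.00413 with the block), and the antiviral gene Mx1 had -1.71 ± 0.64 (adjusted p = 0.13, and 0.00208 with the block). At day 0 the median of the list was -0.67. Of 41 chemokines, cytokines and acute phase genes 1 rose and 4 fell (1 and 14 with the block; 0 to 2 higher, most without control replicate 3, and 2 to 11 lower with 1 array left out; median -0.41). Tnfsf11, which encodes RANKL, the cytokine that drives osteoclasts, read 7.33, 7.39, 8.55 and 6.53 in control and 4.35, 5.22, 5.05 and 4.35 in knockdown cells, a difference of -2.71 ± 0.46 (adjusted p = 0.00648). The interleukin 1 receptor antagonist gene Il1rn had -2.33 ± 0.53, the B cell chemokine gene Cxcl13 -1.71 ± 0.34 and the membrane-bound chemokine gene Cx3cl1 -1.13 ± 0.25; the acid glycoprotein gene Orm2 rose by 0.73 ± 0.17. Tnfsf11 and Cxcl13 kept their call with each of the 8 arrays left out; Il1rn, Cx3cl1 and Orm2 lost theirs without knockdown replicate 2 or 4 and without at least 1 control array. Against this direction, Cd274, which encodes the T cell inhibitor PD-L1 and can be induced by interferon, rose and was the only called gene of 17 in class I antigen presentation (1 to 2 higher and 0 to 1 lower with 1 array left out). It read 6.48, 6.52, 6.91 and 6.06 in control and 8.44, 8.34, 7.80 and 8.03 in knockdown cells, a difference of 1.66 ± 0.18 (adjusted p = 0.000471).

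Few day 7 effects could be shown to differ from those in preadipocytes. Of the 1197 called genes, 115 were also called at day 0 in the same direction and 1 in the opposite direction, where 328 genes were called in all (1.8%). The test of the difference between the days called 4 genes (0.022%). Ehhadh had -0.12 at day 0, and its day 7 effect was larger by 2.34 (limma adjusted p = 0.00168). Cd274 had -0.28 at day 0 and a difference between days of 1.95 (adjusted p = 0.047). Gdpd2, a glycerophosphodiester phosphodiesterase gene, was higher by 1.98 at day 0 and lower by 1.02 at day 7, a difference of -3.00 (adjusted p = 0.047). Edem1, which helps to dispose of misfolded glycoproteins, was lower at day 0 only (-0.89, against -0.03 at day 7; adjusted p of the difference 0.047). With the block 196 genes passed this test, without knockdown replicate 3 it was 317, and with replicates 1 and 2 averaged 0. The mitochondrial ribosome list had a median of 0.05 at day 0 and the nucleolar list -0.06; this difference between the lists' medians at the 2 days was not tested.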

How the data were processed

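The deposited values are log2 expression per probe set on 14 arrays, made with RMA and the affy package per the submitters' processing notes, with versions not given in the sources used here. RNA was amplified and biotin labelled, per the labels' protocols. Array medians lay between 5.44 and 5.57, and 0 values were missing. Of 45101 probe sets, 34945 had 1 gene symbol, 932 several and 9160 none in the platform annotation, and 64 were controls; the brightest single-symbol probe set over all arrays stood for each of 18193 genes, of which 18031 were found in the RefSeq table. The number of arrays, 4 a group at day 7, limits the precision.

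Day 7 knockdown and control cells were compared with limma 3.58.1 (R 4.3.3; lmFit and eBayes, Benjamini-Hochberg adjusted p under 0.05), with 1 mean for each of the 4 groups of 14 arrays. The script was tested on simulated data. Same-numbered arrays deviated together from their group means, with correlations over genes of 0.434, 0.478, 0.59 and 0.389, so replicate numbers, which come from the labels, were taken as pairs; the replicate block is an alternative. Control replicate 1 correlated about as well with knockdown replicate 2 (0.467), and control replicate 2 with knockdown replicate 1 (0.487).

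Genes were named by this rule: Trp53inp2; the 15 largest increases and 15 largest decreases among genes called both with replicates 1 and 2 separate and averaged, with groups that do not overlap; up to 5 called members of largest change in each of 62 gene lists; and reference genes of the fat cell programme. Ifi47, Mx1, Gdpd2, Edem1, Mrps18c, Trp53inp1 and Prrx1 lie outside it and were chosen after their values were seen. Of 2006 list entries 1845 matched a measured gene. The members and lists were chosen with earlier results of these data known. Lists are described by counts and medians, with no set test. Promoters are the 250 bases before each gene's start in the RefSeq table (GRCm38.p6), searched on both strands. Alternatives covered the samples in the fit, pairing, averaging of close replicates, normalization, probe set choice, dim genes, the variance model, RNA quality and each array left out.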

Additional observations from a re-analysis of the deposited data

Results flagged for a closer look

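In groups of 4 arrays, 39 of 346 gene and group combinations had 1 array whose gap to the nearest other, as a share of the group's range, exceeded Dixon's critical value (11.3%; chance gives about 1 in 20). Knockdown replicate 3 accounted for 27 of them, and in each of the 27 it lay nearer to the control level than the other 3 knockdown arrays did. It was high for genes with lower values in knockdown cells: Atg2b (7.84), Dcn (10.91), Dlk1 (12.60), Grn (11.74), Ifi47 (8.40), Il1rn (7.17), Itgb2 (6.35), Lipa (11.10), Matn2 (10.98), Meox2 (4.71), Ncam1 (11.83), Pi15 (7.58), Timp3 (8.14) and Vdr (9.93). It was low for genes with higher values in knockdown cells: Cyp51 (10.96), Hadha (9.25), Lef1 (10.85), Mrpl1 (10.71), Mrpl20 (10.42), Ndufa8 (10.93), Ndufaf2 (9.31), Psmg3 (9.37), Slc2a4 (7.03), Stip1 (10.45), Timm10 (10.87), Timm9 (9.38) and Ubqln1 (10.26). Trp53inp2 itself was at its lowest in that array (10.01), so it did not stand nearer to the controls there. Over all genes, the deviations of control and knockdown replicate 3 from their group means correlated at 0.59. The part of a shift shared by both replicate 3 arrays in these 27 cases was not tested.

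Control replicate 3 stood apart for Acta2 (12.47, against at most 11.18 in the others), Dld (9.33), Pappa2 (8.19), Slc4a4 (5.69), Timp4 (10.81) and Vdr (10.59). Control replicate 4 did so for Dgat2 (7.86, against at least 9.87), and control replicate 2 for Psmg3 (9.15). Among the other knockdown arrays, replicate 2 stood apart for Kcnc2 (5.07) and replicate 4 for Pde3b (8.65), Slc4a4 (8.88) and Smc4 (10.87).

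The knockdown effect differed between the days for 4 genes in the limma test of that difference. The day 7 effect minus the day 0 effect was 2.34 for Ehhadh, 1.95 for Cd274, 0.86 for Edem1 and -3.00 for Gdpd2, whose effect had opposite signs at the 2 days.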

How the results depend on the processing

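The call for Trp53inp2 kept its direction and side of the threshold under every alternative run. The counts of called genes moved with the fit. Against 1197 called genes (547 higher, 650 lower), the 8 day 7 arrays alone gave 333 (119 and 214), the replicate block 2680 (1371 and 1309), the block on the day 7 arrays alone 1868 (941 higher), and a beta-actin covariate 2804 (1475 and 1329). With replicates 1 and 2 averaged 64 passed (25 and 39), and without the dimmest 40% of genes 1831 (887 higher); the mean over probe sets gave 412 lower genes. With 1 array left out, 369 to 2885 passed, 125 to 1372 higher and 236 to 1513 lower; the count fell without any of the other 7 arrays and rose without knockdown replicate 3. Chosen after seeing the data, a fit without day 7 replicates 1 and 2 called 48 (32 and 16). The test between days called 196 genes with the block, 1 after quantile normalization, 0 with replicates 1 and 2 averaged, and 1 to 317 with 1 array left out (1 without knockdown replicate 1, 2 or 4 or control replicate 1 or 2, 317 without knockdown replicate 3).

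Of 145 called genes named by their values, 145 kept the call with the replicate block on all arrays, 136 with the block on the day 7 arrays alone, 65 with the day 7 arrays alone and no block, 19 without replicates 1 and 2, 33 with replicates 1 and 2 averaged, 126 with the most variable probe set by interquartile range and 113 with the mean over probe sets; beside the blocked values printed with the results, the block on all arrays changed no other named gene's call. Wnt5a changed sign with that probe set rule (0.14). Of the called genes named, 91 had several probe sets. Another probe set was called in the same direction for 40 of these and in the opposite direction for 0. For 56, another probe set, in some cases a dim one, had under 1/2 of the change. Among the 56 were Ier3ip1 (-0.06 ± 0.11 at 8.59 in control cells) and Cgnl1 (other probe sets between -0.08 and 0.07). Values that had not passed also changed sign. By probe set choice these were Ctnnb1 (0.39, and 0.22 for the mean) and Trp53inp1 (0.20 and 0.07). With 1 array left out, the range was -0.18 to 0.04 for Trp53inp1, -0.61 to 0.14 for Acta2, -0.06 to 0.08 for Axin2, -0.02 to 0.05 for Lpl, -0.05 to 0.24 for Srebf1, -0.19 to 0.02 for Ucp1 and -0.09 to 0.001 for Edem1. Without replicates 3 and 4, Acta2 had 0.12, Axin2 -0.03 and Lpl -0.06; without replicates 1 and 2, Ppara had -0.05 and Trp53inp1 0.06. Of 1155 list medians under alternatives 48 changed sign, 0 of them with a main median of 0.1 or more in size. The causes were not tested.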

Other observations

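Genes of prostaglandin and retinoid handling moved in part: 5 of 36 rose and 2 fell (8 and 4 with the replicate block; 1 to 5 higher and 0 to 6 lower with 1 array left out). The prostaglandin E2 receptor gene Ptger2 read 3.73, 3.93, 3.12 and 3.11 in control and 5.33, 4.55, 4.56 and 5.21 in knockdown cells, with no overlap; it rose by 1.44 ± 0.23 (limma adjusted p = 0.00553). The retinal reductase genes Dhrs3 (1.31 ± 0.33) and Rdh11 (0.99 ± 0.24) were higher, as was Plaat3, an adipose phospholipase (0.83 ± 0.22). These last 3 lost their call without control replicate 3 or 4 or knockdown replicate 1, 2 or 4. Besides Slc4a4, the anion exchanger gene Slc4a2 rose (0.40 ± 0.09), and these were the 2 called of 19 carbonic anhydrase and bicarbonate genes (3 with the block; 1 to 3 with 1 array left out). Slc4a2 lost its call without control replicate 1 or 4 or knockdown replicate 1, 2 or 4. The noradrenaline transporter gene Slc6a2 read 7.42, 7.43, 8.87 and 8.15 in control and 4.50, 4.90, 6.84 and 4.41 in knockdown cells. Replicate 3 was the highest array in both groups, and the groups did not overlap (-2.81 ± 0.52, adjusted p = 0.0101).

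Of 42 S phase genes 1 rose and 0 fell at day 7 (9 and 0 with the block; 0 to 5 higher with 1 array left out); 37 of the 42 differences were above 0, and all knockdown arrays were above all controls for 11, against 6.02% of all genes. Of 50 mitosis genes 1 rose and 1 fell (1 and 1 with the block; 1 higher and 0 to 1 lower with 1 array left out). The mitotic kinesin gene Kif14 went from 2.88 ± 0.20 to 3.76 ± 0.18 near the bottom of the scale, and the condensin gene Smc4 fell by 0.30 (SE 0.08). At day 0 the medians of the same lists were -0.32 and -0.83, against 0.26 and 0.05 at day 7; the difference was not tested. Of 37 cell cycle inhibitor and p53 target genes 3 rose and 0 fell (5 and 5 with the block; 1 to 5 higher and 0 to 6 lower with 1 array left out), among them Phlda3 (0.54 ± 0.09), an inhibitor of AKT, and the nuclease gene Aen (0.51 ± 0.13). Phlda3 and Kif14 kept their call with each array left out, and Aen and Smc4 lost theirs without any array but knockdown replicate 3. Of the 1197 called genes, 987 belong to none of the 62 lists.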
